A study of Homo sapiens with 6 samples.

Results

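The ZNF genes with a solid signal in PC9 cells were examined here across control and RBM10-depleted libraries. PC9 cells come from a human adenocarcinoma of the lung with a mutant EGFR. The genes were chosen by symbol and by measured count, and a gene was included if its symbol was ZNF followed by a number, with at most 1 letter after it, and if its estimated read count averaged 100 or more over the 6 libraries. This rule gave 218 of the 461 ZNF genes in a table of 16306 genes. All 218 passed the filter on low counts, which left 12620 genes for testing. Of these 218 genes, 17 had a mean under 100 in the control libraries and 1 had a mean under 100 in the RBM10-depleted libraries, so each of these 18 depended on the group with the higher counts. Just inside the limit were ZNF26, ZNF189 and ZNF611, with mean counts of 101.7, 102.0 and 104.0. Just outside were ZNF701, ZNF619 and ZNF28, with 97.5, 98.0 and 98.9.

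The control group was PC9 with a negative control shRNA (sh-NC, 3 libraries), and the other group was PC9 with shRNA against RBM10 (shRBM10, 3 libraries). RBM10 is an RNA-binding protein that regulates alternative splicing and is often mutated in lung adenocarcinoma, and the comparison asks which transcripts differ when it is depleted. Which of the RBM10 shRNAs was used, and whether the cells were clones or pools, is not given in the sources used here. The sh-NC libraries are called replicates 1, 2 and 3. The shRBM10 libraries are called A, B and C, because the table's names for B and C match the group but not a particular sample title. The table's names for A, B and C all carry the mark SH1. The numbers in the shRBM10 sample titles differ and could mark replicates or different shRNAs against RBM10. A difference between A, B and C therefore cannot be told apart from a difference between shRNAs. The labels number the libraries as biosamples and the study's methods say in general that experiments were repeated independently, but neither says whether these libraries came from separate cultures, so the p-values measure the spread between these libraries, which may be technical. The protocol text in the labels mentions retina and 2 library kits. The epithelial markers EPCAM, CDH1, KRT7, KRT8, KRT18 and KRT19 were all present, with summed counts of 609883 to 744461 in sh-NC and 429146 to 678823 in shRBM10. Of 14 markers of leukocytes, fibroblasts, endothelium and retina, 3 were absent from the table. The other 11 were in it, and none of these was at 0 in all libraries. Their summed counts were 2397 to 2543 in sh-NC and 1951 to 2687 in shRBM10. Library totals were 16606401 to 18864241 counts. RBM10 itself, in CPM (counts scaled to a common library size by the TMM method), had 77.9, 64.4 and 79.96 in sh-NC and 29.2, 28.0 and 36.6 in shRBM10, so the groups did not overlap and the labels held for the targeted gene. Its log2 fold change was -1.24 (SE 0.23; edgeR quasi-likelihood adjusted p = 0.10).

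Most ZNF genes encode proteins with C2H2 zinc fingers, short loops in which a pair of cysteines and a pair of histidines hold a zinc ion so that the finger can read DNA, or in some members RNA. Many carry a KRAB domain, which recruits the co-repressor TRIM28 (KAP1) and, through it, the histone methyltransferase SETDB1 and HP1 proteins, to silence transposable elements and some genes. Most KRAB genes arose by tandem duplication, and their clusters on chromosome 19 still hold many near-identical copies. The 218 genes followed this layout, with 78 on chromosome 19, 23 on chromosome 16 and 19 on chromosome 7. A KRAB-like pattern was found in 80 of the 217 genes that had a coding sequence in GENCODE 29. A search for C2H2 finger patterns found 0 in some of these genes, such as ZNF185 and ZNF503.

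The repeated unit of the family is printed here for 6 of the genes, 3 that were higher in shRBM10 (ZNF350, ZNF627 and ZNF780A) and 3 that were lower (ZNF787, ZNF408 and ZNF48). Each is the first finger in the coding sequence that has 2 residues between the cysteines and 12 between the second cysteine and the first histidine. The strand printed is the coding strand from 5′ to 3′, and capitals mark the codons of the zinc-holding cysteines and histidines.
ZNF350: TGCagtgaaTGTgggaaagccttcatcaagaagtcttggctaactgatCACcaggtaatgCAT
ZNF627: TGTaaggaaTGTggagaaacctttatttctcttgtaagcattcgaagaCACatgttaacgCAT
ZNF780A: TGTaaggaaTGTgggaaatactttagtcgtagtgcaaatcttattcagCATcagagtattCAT
ZNF787: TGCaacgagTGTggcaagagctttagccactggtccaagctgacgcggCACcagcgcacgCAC
ZNF408: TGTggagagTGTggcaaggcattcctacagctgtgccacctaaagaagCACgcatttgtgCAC
ZNF48: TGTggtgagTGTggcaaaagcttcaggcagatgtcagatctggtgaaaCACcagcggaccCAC
In GRCh38 these lie in coding exons at chr19:51965769-51965831 (ZNF350, minus strand), chr19:11617008-11617070 (ZNF627, plus), chr19:40075881-40075943 (ZNF780A, minus), chr19:56088908-56088970 (ZNF787, minus), chr11:46704763-46704825 (ZNF408, plus) and chr16:30397590-30397652 (ZNF48, plus). These 6 stretches differ in protein sequence as well as in base composition. Their GC content was 44.4% in ZNF350, 36.5% in ZNF627 and 34.9% in ZNF780A, against 61.9% in ZNF787, 52.4% in ZNF408 and 54.0% in ZNF48. Over whole transcripts, the GC content of the 218 genes ran from 34.9% to 71.1%.

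As a family, the ZNF genes did not move in 1 direction. For the 218 genes, log2 fold changes had a median of 0.084 and 120 lay above 0 (55.0%), beside a median of 0.027 and 51.6% above 0 over all 12620 genes tested. No ZNF gene passed an adjusted p of 0.05 with an absolute log2 fold change over 1 in edgeR, where 0.0158% of all genes (2 genes) passed as higher and 0 as lower, and the lowest adjusted p of a ZNF gene was 0.137. At an unadjusted p under 0.05 and the same fold limit, 26 ZNF genes were higher in shRBM10 (11.9%, where 10.1% of all genes were) and 0 were lower (where 1.53% were). Without the fold limit, 32 were higher (14.7%, background 15.7%) and 13 were lower (5.96%, background 8.60%). DESeq2 called 6 ZNF genes higher at an adjusted p under 0.05 and a log2 fold change over 1 (2.75%, background 3.64% of 12374 genes) and 0 lower (background 1.00%). These 6 were ZNF114, ZNF277, ZNF350, ZNF627, ZNF281 and ZNF24. ZNF787 had a DESeq2 adjusted p of 0.0468 with a smaller fold than the limit. The 3 shRBM10 libraries all lay above the 3 sh-NC libraries in 18 ZNF genes (8.26%, background 13.8%) and all below in 30 (13.8%, background 16.2%). The exact permutation test, two-sided, gives these 48 genes p = 0.1, the smallest that 3 against 3 allows. In these bulk libraries, fewer cells of a kind and less RNA per cell cannot be told apart.

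Libraries differed within each group, and this bears on every count above. Of all counts, the 218 genes took 0.538%, 0.348% and 0.532% in control replicates 1 to 3, whereas they took 0.570%, 0.491% and 0.473% in shRBM10 A to C. Replicate 2 of sh-NC thus had the lowest share, and its TMM factor was 0.738 where the other 5 had 1.03 to 1.08. Among the 32 higher ZNF genes, sh-NC replicate 2 was the lowest of the control libraries in 30 and library C was the lowest of the shRBM10 libraries in 32. Over all 218 genes these numbers were 126 and 120. Without sh-NC replicate 2, 3 ZNF genes were higher at p under 0.05 and a log2 fold change over 1 (background 4.81%), and without the fold limit 7 were higher (background 11.6%) and 29 lower (background 12.7%). Of the 13 lower genes all 13 kept p under 0.05 without that library, and of the 32 higher ones 6 did. Other libraries weighed on both counts. At any fold, the higher count was 5 without shRBM10 library A, 13 without B and 53 without C, and 40 and 36 without sh-NC replicates 1 and 3. The lower count was 3 without A, 3 without B and 31 without C, and 6 and 7 without sh-NC replicates 1 and 3. Shares over all genes are not given for these other fits, so their counts describe the ZNF genes only.

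Among the higher genes, 12 of the 26 had groups that did not overlap, and the 8 of these with the smallest p were ZNF114, ZNF277, ZNF350, ZNF627, ZNF281, ZNF286A, ZNF780A and ZNF189. Of the 26, 9 were among the 17 genes that met the count limit through shRBM10, where they were high (ZNF627, ZNF286A, ZNF780A, ZNF189, ZNF84, ZNF337, ZNF611, ZNF558 and ZNF841), so the choice of genes favoured their direction and their values are a description. ZNF114, a KRAB-type gene on chromosome 19, had 7.55, 9.46 and 8.20 CPM in sh-NC and 23.9, 23.7 and 13.5 in shRBM10. Library C was lower than A and B but above every control. The log2 fold change was 1.28 (SE 0.31; edgeR adjusted p = 0.137), and it was 1.28 without sh-NC replicate 2.
ZNF277, a C2H2 gene without a KRAB-like pattern on chromosome 7, had 15.2, 10.1 and 15.2 CPM in sh-NC and 30.3, 30.5 and 25.8 in shRBM10. Here the 3 shRBM10 libraries lay close together, and the log2 fold change was 1.10 (SE 0.27; edgeR adjusted p = 0.139). ZNF350 (ZBRK1), a KRAB repressor that works with BRCA1 at DNA damage genes such as GADD45A, had 7.404, 4.25 and 7.02 CPM in sh-NC and 20.4, 19.5 and 9.51 in shRBM10. Its log2 fold change was 1.40 (SE 0.37; edgeR adjusted p = 0.151). ZNF627, a KRAB gene on chromosome 19, had 3.55, 4.17 and 4.47 CPM in sh-NC and 17.4, 10.95 and 4.91 in shRBM10. Its control mean was under 100 counts. Library C was barely above the controls, and the log2 fold change was 1.44 (SE 0.43; edgeR adjusted p = 0.153).

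ZNF281, a regulator of pluripotency and of the epithelial-mesenchymal transition, had 15.4, 6.26 and 16.9 CPM in sh-NC and 46.5, 32.1 and 20.9 in shRBM10. Its log2 fold change was 1.36 (SE 0.42; edgeR adjusted p = 0.155), and 0.95 without the low control library. The remaining 3 were closer between library C and the controls. ZNF286A had 6.42, 3.06 and 4.71 CPM in sh-NC against 14.5, 9.44 and 6.69 in shRBM10. Its estimated counts were not whole in any of the 6 libraries, as happens when reads are divided between similar sequences, so its level is uncertain. ZNF780A, whose low-GC finger is printed above, had 5.03, 2.09 and 4.67 CPM in sh-NC against 13.02, 8.71 and 5.12 in shRBM10. ZNF189, which sits just above the count limit, had 3.85, 1.04 and 3.88 CPM in sh-NC against 12.2, 7.61 and 3.97 in shRBM10. In ZNF780A and ZNF189, library C and the highest control differed by less than 0.1 CPM.

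**Figure D1:**
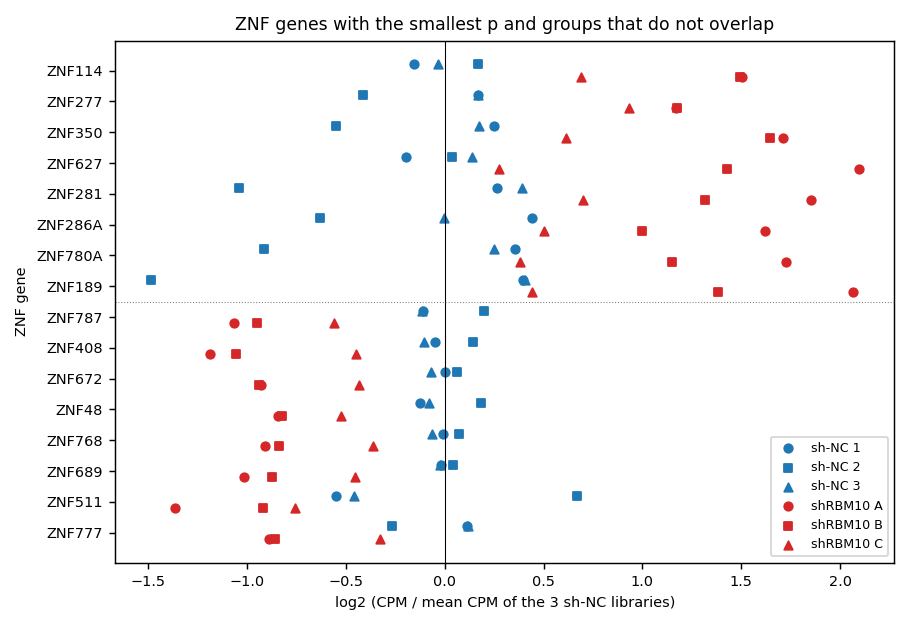
Level of the 8 higher and 8 lower ZNF genes with the smallest p and groups that do not overlap, as log2 of CPM over the mean CPM of the 3 sh-NC libraries; each point is 1 library (blue, sh-NC replicates 1 to 3; red, shRBM10 A to C). In the upper genes library C (red triangles) lies nearest the controls, and in ZNF281, ZNF780A and ZNF189 sh-NC 2 (blue squares) lies far below the other controls, while in ZNF787 to ZNF689 the 3 controls lie close together.

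No lower ZNF gene reached the fold limit, so the lower genes described here were chosen after their values were seen, as those with the smallest p and groups that did not overlap. ZNF787, on chromosome 19 and the ZNF gene with the largest mean count (2965), had 195, 242 and 195 CPM in sh-NC and 100.5, 109 and 143 in shRBM10. All 3 shRBM10 libraries lay well below the controls, with a log2 fold change of -0.84 (SE 0.23; edgeR adjusted p = 0.153). ZNF408, mutated in an inherited disease of retinal vessels, had 45.1, 51.6 and 43.5 CPM in sh-NC and 20.6, 22.5 and 34.2 in shRBM10, a log2 fold change of -0.86 (SE 0.26; edgeR adjusted p = 0.155). ZNF672 had 49.8, 51.9 and 47.2 CPM against 26.0, 25.9 and 36.7, and ZNF48, on chromosome 16, had 27.6, 34.1 and 28.4 against 16.8, 16.999 and 20.9. In both genes the 3 shRBM10 libraries lay below the lowest control. ZNF689, the only 1 of the 13 with a KRAB-like pattern, had 19.9, 20.9 and 19.9 CPM in sh-NC and 10.001, 11.1 and 14.8 in shRBM10, a log2 fold change of -0.76 (SE 0.27; edgeR adjusted p = 0.169). ZNF768 (log2 fold change -0.68), ZNF511 (-0.99) and ZNF777 (-0.67) complete the 8. In ZNF511 the largest value was 68.5 CPM in sh-NC replicate 2, beside 29.5 and 31.4 in the other controls, and its log2 fold change without that library was -0.57. In all 13 lower genes library C was the highest of the shRBM10 libraries.

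The fold changes of the ZNF genes followed the GC content of the transcript. Across the 218 genes, Pearson's r between the log2 fold change and GC content was -0.74 (Spearman's rho -0.76), and across 12569 genes of all kinds it was -0.59 (rho -0.61). Among the 218 genes, r was -0.70 with GC at the last codon position (217 genes), 0.43 with log2 transcript length and 0.16 with the number of finger patterns (217 genes). These are descriptions across genes measured in the same 6 libraries, and genes are not independent replicates. The 32 higher genes had GC contents of 35.6% to 49.4% and the 13 lower genes 54.5% to 70.3%, so these ranges did not overlap. Of the 73 genes in the lowest GC tertile (34.9% to 44.1%), 69 had a log2 fold change above 0, with a median of 0.82. At p under 0.05, 27 of them were higher and 0 lower, where 15.7% and 8.60% of all genes at any GC content were. Of the 73 in the highest tertile (54.1% to 71.1%), 65 were below 0, with a median of -0.39. At the same p, 13 of them were lower (background 8.60%) and 0 higher (background 15.7%). The 72 in between had a median of 0.095.

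Single libraries carried this order to different extents. Set against the control mean, the median log2 level of the lowest GC tertile stood at 0.30, -0.50 and 0.21 in control replicates 1 to 3, while it stood at 1.31, 0.85 and 0.12 in shRBM10 A to C. Libraries A and B were thus above all controls, whereas C lay within the range of the controls. In the highest tertile these medians were 0.028, 0.011 and -0.010 for the controls, and -0.48, -0.46 and -0.081 for shRBM10 A to C. Across the 218 genes, the correlation of the log2 level in a library, against the control mean, with GC content was -0.39, 0.38 and -0.34 for the controls, and -0.81, -0.75 and -0.15 for shRBM10 A to C. The order by GC content was therefore strong in A and B and weak in C, and ran the other way in sh-NC replicate 2, where the control values are set against their own mean.

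**Figure D2:**
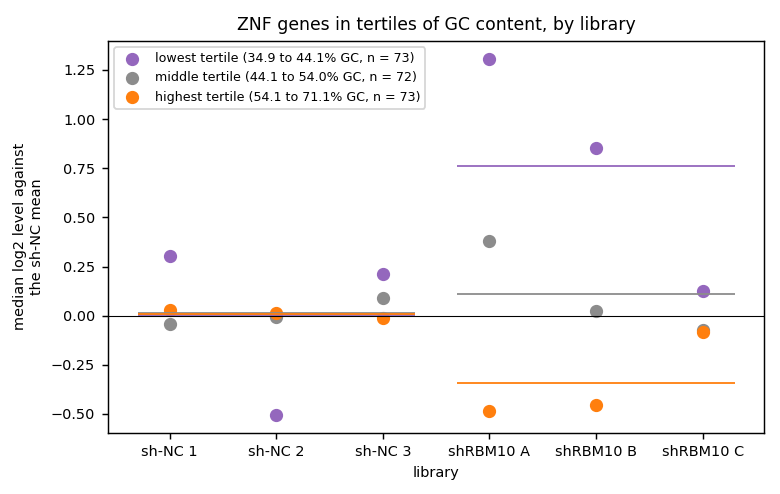
Median log2 level, against the mean of the sh-NC libraries, of the ZNF genes in each tertile of GC content, 1 point per library and tertile; horizontal lines are the means of the 3 libraries of a group. The low-GC tertile stands at 1.31 and 0.85 in shRBM10 A and B but at 0.12 in C, and at -0.50 in sh-NC 2.

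With the GC trend of each library taken out over all genes, the spread of the family shrank. The tertile medians became 0.21, 0.083 and -0.013, and r with GC content became -0.15. Then 3 ZNF genes were higher at p under 0.05 with a log2 fold change over 1 (background 2.78%), 14 were higher without the fold limit (background 10.1%) and 10 were lower (background 7.92%). With sh-NC replicate 2 left out as well, 1 was higher past the fold limit (background 2.20%), 13 were higher without it (background 13.3%) and 40 were lower (background 16.9%). Of the 45 ZNF genes past p 0.05 in the uncorrected fit, 11 kept p under 0.05 and their direction without sh-NC replicate 2, with the GC trend removed, and with both changes together. The higher ones were ZNF627, ZNF350, ZNF281, ZNF114, ZNF277 and ZNF251, and the lower ones were ZNF488, ZNF672, ZNF689, ZNF787 and ZNF408. How many of all genes would pass the same settings was not counted, so the 11 have no background beside them. ZNF627 met the count limit through shRBM10, where it was high. Leaving out any other library was not part of this choice. With both changes together, ZNF627, ZNF350, ZNF281 and ZNF277 had log2 fold changes of 0.89, 0.63, 0.45 and 0.45, so ZNF114 alone stayed over 1. ZNF672, ZNF689 and ZNF408 had -0.47, -0.60 and -0.56. ZNF114 changed least across these settings, and its log2 fold change stood at 1.18 once the GC trend was out and at 1.20 with sh-NC replicate 2 also left out. ZNF251 (log2 fold change 0.90) gave 0.91 and 0.74 in the same settings, and ZNF787 gave -0.39 and -0.42, a smaller drop than its -0.84 without correction. ZNF488, a gene of the oligodendrocyte lineage, went from -0.70 to -0.46 and -0.51.

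**Figure D3:**
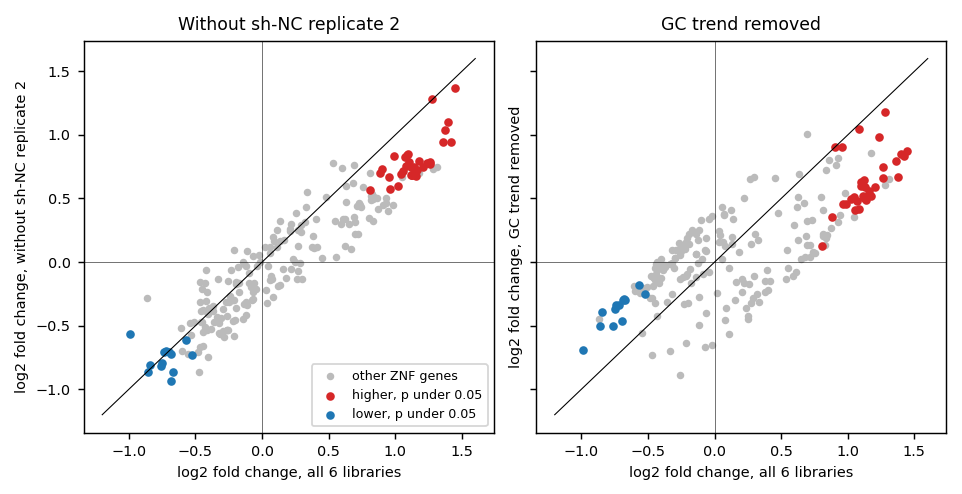
Log2 fold change of the 218 ZNF genes with all 6 libraries (x axis) against the value without sh-NC replicate 2 (left) and with the GC trend removed (right); the diagonal marks equal values, red and blue mark the 32 higher and 13 lower genes at an unadjusted p under 0.05. On the left all red points but ZNF114 fall under the diagonal while most blue points lie near it, and on the right all coloured points but ZNF251 move towards 0.

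The KRAB-like genes had a higher median than the others, 0.38 (80 genes) against -0.068 (137 genes), and 15 of 80 were higher at p under 0.05 and a log2 fold change over 1 against 11 of 137, where 10.1% of all genes were. They also had a lower median GC content, 45.4% against 52.0%. Within the lowest GC tertile the medians were 0.82 (35 KRAB-like genes) and 0.79 (38 others), and within the highest they were -0.37 (13) and -0.40 (60). With the GC trend removed they were 0.072 and 0.067. The pattern search missed some KRAB genes, such as ZNF202 and ZNF263, so the 137 others are not all genes without a KRAB domain. The genes on chromosome 19 had a median of 0.26 (78 genes) and those elsewhere 0.066 (140 genes), with median GC contents of 45.9% and 50.3%.

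Several ZNF genes act in named processes, and these are described by role. In the group of DNA-binding regulators drawn up outside the KRAB lists, 10 of 13 genes had a mean count of 100 or more, with a median log2 fold change of 1.10. At p under 0.05 and a fold over the limit, 6 of the 10 were higher: ZNF148 (ZBP-89), ZNF281, ZNF131, ZNF217, ZNF292 and ZNF24 (background 10.1%). At p under 0.05 and any fold, 1 of the 10 was higher without sh-NC replicate 2 and 1 with the GC trend removed, with medians of 0.69 and 0.49. ZNF217, a breast cancer oncogene that recruits co-repressors, had 30.3, 10.8 and 30.5 CPM in sh-NC and 75.4, 48.8 and 32.0 in shRBM10 (log2 fold change 1.12, edgeR adjusted p = 0.176). ZNF24, a SCAN-domain repressor of VEGF, had 15.1, 7.53 and 13.1 against 50.8, 28.3 and 13.7, and its groups overlapped (log2 fold change 1.37, edgeR adjusted p = 0.158). All 6 of these had low-GC transcripts (35.6% to 43.5%). Without sh-NC replicate 2, the log2 fold changes of ZNF148, ZNF217 and ZNF292 were 0.69, 0.69 and 0.75. ZNF263, a factor with SCAN and KRAB domains whose KRAB domain the pattern search did not find, was lower, with 53.1, 40.9 and 55.6 CPM in sh-NC and 33.1, 31.5 and 39.4 in shRBM10 (log2 fold change -0.52, edgeR adjusted p = 0.205), but its estimated counts were not whole in any library.

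Of the 9 ZNF genes that act on RNA, ribosomes or translation, 1 was higher and 1 was lower at p under 0.05 (background 15.7% and 8.60%). Their median was 0.16. ZNF638, which binds DNA and RNA and silences unintegrated retroviral DNA, had 19.9, 4.92 and 15.2 CPM in sh-NC and 37.9, 35.3 and 16.3 in shRBM10 (log2 fold change 1.16, edgeR adjusted p = 0.194). ZNF598, the ubiquitin ligase that marks collided ribosomes, had 80.6, 53.1 and 77.7 CPM in sh-NC and 34.1, 43.3 and 53.9 in shRBM10 (log2 fold change -0.69, edgeR adjusted p = 0.176). In both genes sh-NC replicate 2 was the lowest control and the groups overlapped, and without that library the log2 fold changes were 0.68 and -0.93. ZNF622, a ribosome maturation factor, had a log2 fold change of -0.14, and ZNF207 (BuGZ), which acts at the mitotic spindle, had 0.25, and neither passed p 0.05. ZNF207 had 101, 149.8 and 101 CPM in sh-NC and 168, 147 and 106 in shRBM10, and its sign changed to -0.43 once the GC trend was removed.

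None of the 11 chromatin and SUMO genes with enough counts passed p 0.05, and their median was 0.80, or 0.27 with the GC trend removed, 0.32 without sh-NC replicate 2 and -0.066 with both. The nearest was ZNF644, a partner of the histone methyltransferases G9a and GLP, with a log2 fold change of 0.83 (edgeR adjusted p = 0.208), which became -0.037 with the GC trend removed and sh-NC replicate 2 out. Of 11 KRAB proteins with known roles, 5 had enough counts, and ZNF350 alone passed p 0.05. ZNF274, a KRAB protein that recruits SETDB1 to ZNF genes themselves, had 68.5, 49.6 and 70.9 CPM in sh-NC against 63.5, 56.1 and 60.2 in shRBM10, so the shRBM10 libraries lay within the range of the controls. ZNF445, a regulator of imprinting, had 0.62 and an edgeR adjusted p of 0.434. By mean count, uncorrected for length, the leading ZNF genes were ZNF787 (2965), ZNF581 (2451), ZNF207 (2328), ZNF622 (2126) and ZNF496 (1639), and of these ZNF787 alone passed p 0.05. The fold of ZNF496 (NIZP1), a repressor that binds NSD1, was -0.47 on the log2 scale with groups that did not overlap, and that of ZNF581 was -0.21.

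The co-repressors on which KRAB proteins depend were measured beside them. Of 21 partner genes, 5 were higher at p under 0.05 and a log2 fold change over 1, 1 was lower by the same limits, where 10.1% and 1.53% of all genes were, and the median was 0.44. With the GC trend removed, 0 of the 21 were higher and 0 lower at an unadjusted p under 0.05 in edgeR, and the median was 0.27. TRIM28 itself had 987, 1095.5 and 1012 CPM in sh-NC against 511, 631 and 826 in shRBM10. On this scale no overlap was seen between the groups, and its log2 fold change was -0.65 (SE 0.27; edgeR adjusted p = 0.191), or -0.26 with the GC trend removed, in a transcript of 63.7% GC. Its relatives TRIM24 and TRIM33 went the other way, with log2 fold changes of 1.36 (SE 0.51; edgeR adjusted p = 0.174) and 1.19 (SE 0.47; edgeR adjusted p = 0.178), in transcripts of 42.2% and 39.0% GC. The members of the HUSH silencing complex MPHOSPH8, TASOR and PPHLN1 had 1.36, 1.19 and 1.13, and of these PPHLN1 alone had groups that did not overlap. UHRF1, which guides maintenance DNA methylation, had -1.05 (SE 0.36; edgeR adjusted p = 0.165), and its groups overlapped. Its log2 fold change was -1.46 without sh-NC replicate 2 and -0.84 with the GC trend removed. SETDB1, the methyltransferase at the end of the chain, did not pass p 0.05. Without sh-NC replicate 2, the values of MPHOSPH8, TASOR, TRIM24 and TRIM33 were 0.87, 0.73, 0.86 and 0.76.

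Use of transcripts within a gene was tested separately, since RBM10 regulates splicing and the choice of the ZNF genes did not use it. Of 170 ZNF genes with at least 2 transcripts kept, 10 passed a Simes adjusted p of 0.05 (5.88%, background 3.50% of 8348 genes), namely ZNF467, ZNF140, ZNF516, ZNF75A, ZNF7, ZNF805, ZNF623, ZNF326, ZNF827 and ZNF436. The leading 3 passed in all 6 fits that left out 1 library. In ZNF467 (adjusted p = 0.000416 from edgeR), the transcript XM_005249961 had estimated counts of 70.4, 31.0 and 17.8 in sh-NC, which was 37.4%, 29.5% and 12.5% of the summed counts of the gene's tested transcripts, and was listed at 0 in each shRBM10 library. In ZNF140, a KRAB gene (edgeR adjusted p = 0.000462), XM_011534840 was listed at 0 in each sh-NC library and had 73.9, 53.0 and 22.04 in shRBM10, or 28.1%, 26.3% and 18.0% of the same sum. In ZNF516, a regulator of brown fat genes (edgeR adjusted p = 0.000555), XM_011526270 was listed at 0 in each sh-NC library and had 27.3, 34.0 and 39.7 in shRBM10, or 3.61%, 7.16% and 4.72%. ZNF75A and ZNF7 followed, with edgeR adjusted p-values of 0.00145 and 0.00281, and each passed in 4 of the 6 such fits. ZNF805, ZNF623, ZNF326, ZNF827 and ZNF436 passed in 2, 3, 1, 0 and 0 of them. The transcripts of ZNF436 were each listed 2 times with the same counts, so its test used the same reads repeatedly. All of these counts were low and were estimated by dividing reads among transcripts. Restricted to transcripts with at least 10 counts in every library, 0 of 88 ZNF genes passed, and 3 of 5655 genes of all kinds. The leading transcript of each of the 10 genes was under 10 counts in every library of 1 group. This filter therefore removed it, and the fit could not test those calls.

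Counting limits the precision of some genes. Counts were not whole in at least 1 library for 50 of the 218 genes, as happens where reads fit more than 1 gene, and 116 genes share exon bases with another gene on the same strand (52) or the opposite strand (82). Genes with whole counts in all libraries had a median log2 fold change of 0.070 (168 genes) and the 50 others 0.12. Of the 26 higher genes 5 had counts that were not whole, among them ZNF114 in 1 library, and 12 shared exon bases. ZNF277 shared them with a gene on the same strand, and ZNF114, ZNF627 and ZNF217 with a gene on the opposite strand. The strand setting of the counting is not given in the sources used here, so reads from such pairs cannot be told apart.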

How the data were processed

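Per the labels, polyadenylated RNA of PC9 cells was sequenced (3 sh-NC and 3 shRBM10 libraries), and GEO's processing field names hg38. The authors deposited estimated counts per gene and per transcript. The aligner and counter are not given in the sources used here. Other measures per sample (18 columns per table) and means (8 columns) were not used. Counts were rounded and tested with edgeR 4.0.16 (filterByExpr, TMM, glmQLFit and glmQLFTest, Benjamini-Hochberg adjustment over all genes) in R 4.3.3, with no covariate. Transcript usage was tested with diffSpliceDGE. DESeq2 1.42.0 and limma-voom (limma 3.58.1) were alternatives. The GC trend of each library was a loess curve (span 0.3) over 12569 genes with a GC content (99.6% of those tested) entered as offsets. The scripts were tested on simulated data.

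GC content, positions and exon overlaps came from GENCODE 29 (GRCh38). Finger and KRAB-like patterns were counted on translated GENCODE coding sequences instead of RefSeq proteins. The finger pattern allowed 2 to 4 residues between the cysteines, 12 to the first histidine and 3 to 5 between the histidines. Of the gene counts, 87.5% were whole within 0.005.

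The members and lists were chosen with earlier results of these data known. Genes were named by this rule: in each direction the 8 with the smallest unadjusted p among those with p under 0.05, absolute log2 fold change over 1 and groups that do not overlap; the 5 with the largest mean count; the 3 on each side of the count limit; those in role lists; the 5 with the smallest Simes p; KRAB partners; and RBM10. Lower genes, and genes that passed several settings, were named after their values were seen.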

Additional observations from a re-analysis of the deposited data

How the results depend on the processing

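The 26 ZNF genes higher at p under 0.05 and a log2 fold change over 1 became 10 with library size only, 15 with a mean count of at least 200, 3 with the GC trend removed (also 3 with the trend fitted without ZNF genes), 4 with GC and length trends removed, and 1 with the GC trend removed and sh-NC replicate 2 left out, a setting chosen after seeing the data. Leaving out 1 library gave 3 to 40: 3 without sh-NC replicate 2, 4 without shRBM10 library A, 13 without B, 36 without sh-NC replicate 3, 39 without sh-NC replicate 1 and 40 without C. Among these, a share over all genes is given only for the fit without sh-NC replicate 2. The lower count of 0 became 0 to 4 on leaving out 1 library and 1 with a mean count of at least 50. The 0 genes at an adjusted p became 6 with DESeq2, 0 with limma-voom, and 1 with GC and length trends removed or with the GC trend removed and sh-NC replicate 2 left out. The median of 0.084 became 0.27 with a mean count of at least 50, -0.068 with at least 200, 0.21 with library size only, and -0.070 with the GC trend removed and sh-NC replicate 2 left out, and ran from -0.017 (without shRBM10 library A) to 0.13 on leaving out 1 library (0.0011 without sh-NC replicate 2), so its sign was not stable. Separated genes ranged from 13 to 83 (higher, 18 with all libraries; 32 without sh-NC replicate 1, 83 without C) and 31 to 67 (lower, 30; 61 without C, 67 without sh-NC replicate 2) on leaving out 1 library, and the lower count was 19 with upper quartile normalization, 14 with library size only and 18 with the GC trend removed. The share of all genes that separated is not given for these settings, and groups separate more easily with 1 library fewer. The 10 genes of transcript usage became 6 to 13 on leaving out 1 library (6 without sh-NC replicate 3). They became 0 with at least 10 counts in every library, a filter that removes their leading transcripts. The other values for these counts under DESeq2, limma-voom, RLE normalization and the filters on low counts stayed within 1.5 times.

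Of 48 genes followed through the settings, which include those with a printed log2 fold change, 5 changed direction under some setting, none of them past p 0.05 with all libraries. ZNF581 had log2 fold changes of -0.38 to 0.092 on leaving out 1 library (0.092 without sh-NC replicate 2), 0.16 with the GC trend removed, 0.16 with the trend fitted without ZNF genes, 0.42 with GC and length trends removed, and 0.40 with the GC trend removed and without sh-NC replicate 2. ZNF207 had -0.43, -0.43, -0.96 and -0.10 in the last 4 of these settings, and ZNF622 had 0.067, 0.063, 0.27 and 0.18, and 0.030 with library size only. ZNF644 and ZNF445 had -0.037 and -0.038 with the GC trend removed and without sh-NC replicate 2. The cause was not tested. No paired analysis was possible because 2 of the 3 shRBM10 columns carry no replicate number. Depth limits genes near the count minimum, and with 3 libraries a group a permutation p cannot fall under 0.1.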

Other observations

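The ZNF genes under a mean count of 100 were further from 0 than those described above. Of 172 such genes that passed the filter on low counts, 151 had a log2 fold change above 0 with a median of 0.69, and their median GC content was 42.1%, beside 48.6% for the 218 genes. At p under 0.05 and a log2 fold change over 1, 27 were higher and 2 lower (background 10.1% and 1.53%). The median was 0.20 with the GC trend removed, 0.43 without sh-NC replicate 2 and 0.044 with both, and at any fold 8 were higher at p under 0.05 under either change. ZNF608, a chromatin gene of this set, had counts of 7, 2 and 9 in sh-NC and 21, 27 and 15 in shRBM10, with groups that did not overlap and a log2 fold change of 1.76 (SE 0.45; edgeR adjusted p = 0.144). ZNF143, a promoter factor that passed p 0.05 with a mean count of 84.8, had a log2 fold change of 1.41, or 1.00 without sh-NC replicate 2.

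Other families of finger genes with a mean count of 100 or more had medians of 0.26 (30 ZBTB genes, which pair fingers with a BTB domain), 0.097 (10 ZSCAN), 0.94 (4 ZKSCAN), 0.12 (6 ZFP) and 0.059 (10 KLF). At p under 0.05 and a log2 fold change over 1, 4 ZBTB, 1 ZKSCAN and 2 ZFP genes were higher and 0 of these 60 genes were lower (background 10.1% and 1.53%).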
